A study of Mus musculus with 6 samples.

Results

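ChREBP, the carbohydrate response element binding protein, is a liver transcription factor that is switched on when hepatocytes take up and metabolise sugar. It is encoded by Mlxipl, binds DNA as a heterodimer with the protein MLX, and raises genes of glycolysis, fructose use and fat synthesis. Its best known target in liver is Pklr, and feedback targets such as Txnip limit glucose entry. The genes described here are Mlxipl, Mlx and 6 genes that handle glucose or fructose or respond to them, namely Pklr, Pfkfb1, Slc2a2, Khk, Txnip and Rgs16. These 8 genes of the 22851 in the deposited matrix were chosen by name, with earlier results of the same treated against vehicle contrast in view. Their differences in that contrast are therefore given as a description and support nothing further. All 8 passed the filter on low values, a value above 1 in at least 3 libraries, as did 10743 genes in all.

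Liver RNA came from male C57BL/6J mice fed a high-fat diet. Control animals received vehicle. The others received ONX-0914, an inhibitor of PSMB8, a catalytic subunit of the immunoproteasome, injected subcutaneously over 6 weeks, on alternate days, at 10 mg/kg. Both groups carried the diet, no chow-fed group was analysed here, and the labels give no age. There were 3 libraries per group, called vehicle 1, 2 and 4 and ONX-0914 1, 3 and 4, while the design text gives 2 biological replicates per group, so p-values reflect only how much these libraries vary. The title of the study concerns hepatic steatosis, and the comparison asks how treatment changed liver transcripts.

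The values are FPKM, which the authors scaled by gene length and depth. Short genes with a single transcript gave an approximate depth of 12600000 to 19100000 counted reads per library. Between 10961 and 11049 genes exceeded 1 FPKM in the vehicle libraries, and 8908, 9870 and 8666 did in ONX-0914 1, 3 and 4. By this count and by gene length ONX-0914 3 was closer to vehicle than its group. Long genes (the upper 25% by length) lay below short ones (the lower 25%) in their median distance to vehicle by -0.81 log2 units in ONX-0914 1, by -0.17 in ONX-0914 3 and by -0.84 in ONX-0914 4, and by -0.03 to 0.04 in the vehicle libraries. The median gene of all tested lay at -0.64 in the treated group, so changes are also given after median-ratio scaling (1 factor per library, its median ratio to a geometric mean library), which put that median at -0.01.

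Positions and promoter elements are given first, since the genes differ in whether they carry a ChREBP-type element near the start. In GRCm38, with the GENCODE M21 annotation, Mlxipl spans chr5:135089890-135138382, Mlx chr11:101087277-101092207, Pklr chr3:89136142-89146784, Khk chr5:30921431-30931248, Slc2a2 chr3:28697903-28731359, Pfkfb1 chrX:150588229-150643878, Txnip chr3:96557957-96561883 and Rgs16 chr1:153740349-153745468. Each lies on the plus strand and is protein coding. Exons of 6 of the 8 genes overlap those of a gene on the opposite strand. Pklr shares 711 bases with Hcn3, Txnip 606 with Gm15441, Mlx 385 with Psmc3ip, Rgs16 236 with Gm28513, Mlxipl 235 with Gm43500 and Pfkfb1 123 with Apex2, and no such overlap was found for Khk or Slc2a2. The sources used here do not say whether counting used strand, so reads in these shared stretches cannot be told apart. Hcn3, a channel gene, measured 13.4, 9.13 and 6.94 FPKM in vehicle 1, 2 and 4, against 3.71, 1.77 and 0.60 in ONX-0914 1, 3 and 4, below Pklr in every library. Psmc3ip ranged from 0.72 to 1.28 FPKM and Apex2 from 2.46 to 6.74 over the 6 libraries. Gm15441, Gm28513 and Gm43500 have no row of that name in the deposited matrix, so their levels are not known.

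RefSeq promoters (GRCm38.p6, 250 bases before to 50 after each start) matched all 8 genes with 13 entries. They were searched on both strands for the spaced pair of a carbohydrate response element, CACGNG and CNCGNG with 5 bases between them, and for the E-box CACGTG, the element that MAX, USF and many other factors bind. The spaced pair was in 0.365% of 32851 promoters and the E-box in 7.15%. Among the 8 genes the pair was found for Pklr, in the second of its 2 entries, the downstream start used in liver, and for Txnip, each shown with the letters of the pair in capitals.
Pklr chr3:89136441-89136481, pair from -170 to -154 of the start: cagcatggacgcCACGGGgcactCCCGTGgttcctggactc
Txnip chr3:96557860-96557900, pair from -85 to -69 of the start: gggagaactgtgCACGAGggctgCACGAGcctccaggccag
E-boxes were found for Mlxipl, in the first of its 2 entries, for Mlx and for Khk, shown with the E-box in capitals.
Mlxipl chr5:135089780-135089809: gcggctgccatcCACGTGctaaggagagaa
Mlx chr11:101087238-101087267: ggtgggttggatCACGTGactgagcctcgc
Khk chr5:30921476-30921505: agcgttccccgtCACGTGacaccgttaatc
Neither set of letters was in the entries for Slc2a2, Rgs16 or Pfkfb1, which says only that these letters are not in those windows. A match is a description of sequence and was not set against binding data.

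In the treated livers Pklr, Slc2a2, Txnip and Rgs16 stood far below vehicle, Khk was about 1.95-fold lower, the genes of ChREBP and MLX differed by less than 1 on the log2 scale, and Pfkfb1 was level. In the fit over all genes (limma on log2 of FPKM + 1, Benjamini-Hochberg adjusted p under 0.05), 5 of the 8 were called lower, none higher and 3 were not called. Over all genes tested 43.5% were called lower and 2.56% higher, and nothing is read from the members' count since they were picked with this contrast known. The treated and vehicle libraries did not overlap for 6 of the 8 genes, each lower with treatment, where 53.5% of all genes were lower without overlap and 4.93% higher. The median log2 difference of the 8 genes was -1.66, beside -0.64 for all genes. With median-ratio scaling 3 of the 8 were called lower (Pklr, Slc2a2 and Rgs16) and 1 higher (Pfkfb1), beside 14.2% and 13.8% of all genes, and the medians were -0.92 and -0.01. With each library's trend on gene length removed the same 3 were called lower and Pfkfb1 higher, beside 12.8% and 10.6% of all genes.

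**Figure D1:**
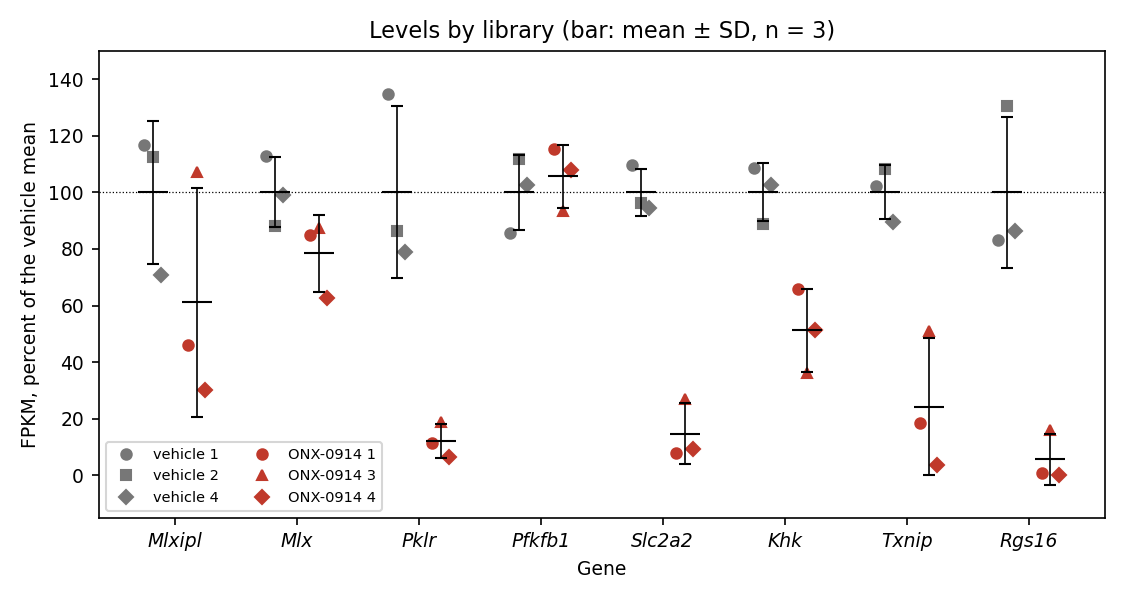
FPKM of each of the 8 genes in each library, as percent of that gene's vehicle mean (vertical axis), with vehicle in grey and ONX-0914 in red and the mean ± SD of 3 libraries in black. Pklr, Slc2a2 and Rgs16 lie at or under 27.0% of the vehicle mean in each treated library, while Mlxipl in ONX-0914 3 lies at 107%.

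Of the transcription factor pair, Mlxipl measured 84.95, 82.0 and 51.7 FPKM in vehicle 1, 2 and 4, against 33.7, 78.0 and 21.9 in ONX-0914 1, 3 and 4. The groups overlap, because ONX-0914 3 lies among the vehicle libraries and above vehicle 4. Its mean went from 72.9 ± 18.4 to 44.5 ± 29.6 FPKM (SD, n = 3 each), a log2 difference of -0.86 (SE 0.41) that was not called. The spread inside the treated group was wider than the distance between the group means. Without ONX-0914 3 the log2 difference was -1.36 and was called lower. ONX-0914 3 alone against vehicle gave 0.13, a value with a treated group of 1 library, whose spread is taken from the vehicle libraries, so its calls carry no replicate check. With median-ratio scaling it was -0.08. Gene-level values do not separate the transcripts that start at the separate Mlxipl promoters, among them the short ChREBP-beta form.

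Mlx, whose product is the obligate partner of ChREBP, measured 48.8, 38.2 and 42.9 FPKM in vehicle 1, 2 and 4, against 36.8, 37.9 and 27.2 in ONX-0914 1, 3 and 4. The groups do not overlap, but the highest treated library and the lowest vehicle library differ by less than 1 SD of either group. Its log2 difference was -0.35 (SE 0.22), not called, and turned to 0.43 with median-ratio scaling and 0.14 with quantile normalization, also not called. The ratio of Mlxipl to Mlx within a library, which a common scale factor cannot alter, was 1.74, 2.15 and 1.21 in vehicle 1, 2 and 4 but 0.92, 2.06 and 0.81 in ONX-0914 1, 3 and 4. ONX-0914 3 again sits inside the vehicle range and the other treated libraries below it.

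Pklr encodes the liver pyruvate kinase, which makes pyruvate in the last step of glycolysis. It measured 245.1, 156.7 and 143.2 FPKM in vehicle 1, 2 and 4, against 20.6, 34.0 and 11.8 in ONX-0914 1, 3 and 4. Every treated library is far below every vehicle library, ONX-0914 3 being the highest of the treated. The mean went from 182 ± 55.3 to 22.1 ± 11.1 FPKM (n = 3 each), 8.21-fold lower, and the log2 difference of -3.06 (SE 0.36) was the 38th lowest of the 10743. It was -2.28 with median-ratio scaling and -2.34 in ONX-0914 3 alone against vehicle. The ratio of Pklr to Mlxipl was 2.88, 1.91 and 2.77 in vehicle 1, 2 and 4 but 0.61, 0.44 and 0.54 in ONX-0914 1, 3 and 4. That ratio was lower in all 3 treated libraries, ONX-0914 3 included, where Mlxipl itself was at the vehicle level. Against Pkm, the pyruvate kinase gene of most other cells, the ratio was 6.37, 6.84 and 3.40 with vehicle and 1.47, 4.88 and 0.81 with ONX-0914, where ONX-0914 3 falls inside the vehicle range.

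Pfkfb1 encodes the liver enzyme that makes and breaks fructose 2,6-bisphosphate, the signal that sets glycolysis against glucose production. It measured 30.7, 40.1 and 36.8 FPKM in vehicle 1, 2 and 4, against 41.3, 33.5 and 38.7 in ONX-0914 1, 3 and 4. The groups overlap fully, with a log2 difference of 0.08 (SE 0.21), not called. Set against the falling median of all genes it stood higher, at 0.86 with median-ratio scaling and 0.77 with the length trend removed, and was called in both. Its log2 difference was above that of 84.5% of all genes tested.

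Slc2a2 encodes GLUT2, the transporter that carries glucose and fructose in and out of hepatocytes. It measured 137, 121 and 118 FPKM in vehicle 1, 2 and 4, against 9.74, 33.9 and 11.8 in ONX-0914 1, 3 and 4. The vehicle libraries lie close together and each treated library is at or below 27.0% of their mean, with ONX-0914 3 the highest. Means were 125 ± 10.5 and 18.5 ± 13.4 FPKM (n = 3 each), 6.79-fold lower with treatment, a log2 difference of -2.90 (SE 0.39), or -2.13 with median-ratio scaling. The ratio of Slc2a2 to Slc2a1, the transporter gene of most other tissues, was between 23.9 and 35.5 with vehicle and was 5.60, 13.2 and 4.73 in ONX-0914 1, 3 and 4.

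Khk encodes ketohexokinase, which phosphorylates fructose in the first step of its breakdown. It measured 1394, 1139 and 1319 FPKM in vehicle 1, 2 and 4, against 846, 467 and 659 in ONX-0914 1, 3 and 4. The groups do not overlap, and here ONX-0914 3 is the lowest treated library, as it is for Pfkfb1. It is the highest for Pklr, Slc2a2, Txnip, Rgs16, Mlxipl and Mlx. The mean went from 1284 ± 131 to 657 ± 190 FPKM (n = 3 each), and the log2 difference was -1.0 (SE 0.24). The call was lost with median-ratio scaling (-0.20) and with the length trend removed (-0.72).

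Txnip encodes an arrestin-like protein that binds thioredoxin, slows glucose uptake and is induced by sugar. It measured 28.5, 30.2 and 24.96 FPKM in vehicle 1, 2 and 4, against 5.11, 14.2 and 1.06 in ONX-0914 1, 3 and 4. The groups do not overlap, and among the treated libraries ONX-0914 3 is the highest and ONX-0914 4 the lowest. The log2 difference was -2.32 (SE 0.59). It was -1.65 with median-ratio scaling and -1.73 with the length trend removed, not called in either. In ONX-0914 3 alone against vehicle the difference was -0.92. The values may include reads of the antisense gene named above.

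Rgs16 encodes a regulator of G protein signalling whose transcript rises in hepatocytes with glucose. It measured 20.1, 31.5 and 20.8 FPKM in vehicle 1, 2 and 4, against 0.22 and 3.86 in ONX-0914 1 and 3, and was listed at 0 in ONX-0914 4. With the estimated depth these correspond to about 700 to 1408 counted reads per vehicle library and to about 8 and 114 in ONX-0914 1 and 3. No other of the 8 genes came so close to 0, and its log2 difference of -3.77 (SE 0.54) was the 6th lowest of all genes tested. That value depends on the 1 added before the log and became -5.56 with 0.1 added.

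**Figure D2:**
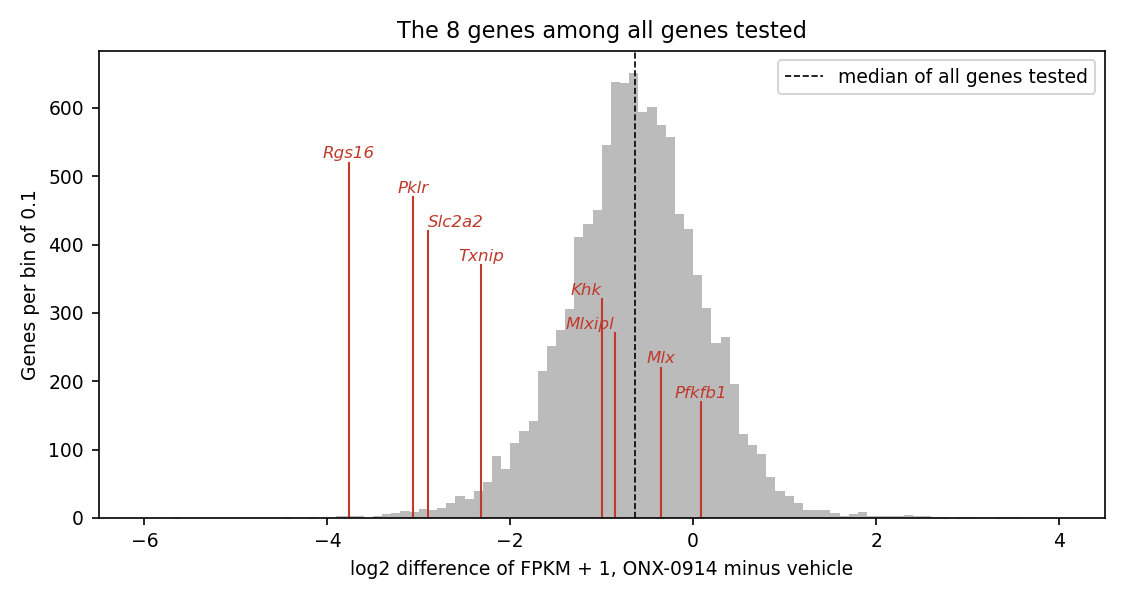
Histogram of the log2 difference of FPKM + 1 (ONX-0914 minus vehicle) over all genes tested, in genes per bin, with the median as a dashed line and the 8 genes as red lines whose height has no meaning. Rgs16, Pklr, Slc2a2 and Txnip stand in the lower tail, while Khk, Mlxipl, Mlx and Pfkfb1 stand within the bulk around the median of -0.64.

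By level, the order in vehicle livers was Khk, Pklr, Slc2a2, Mlxipl, Mlx, Pfkfb1, Txnip and Rgs16, on the FPKM scale, which is per length. The neighbours Mlx and Pfkfb1, and Txnip and Rgs16, overlapped in their vehicle libraries and the other neighbours did not. With ONX-0914 the order of the means was Khk, Mlxipl, Pfkfb1, Mlx, Pklr, Slc2a2, Txnip and Rgs16. Pklr and Slc2a2 thus went from above Mlxipl to below it, a change seen in each treated library.

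**Figure D3:**
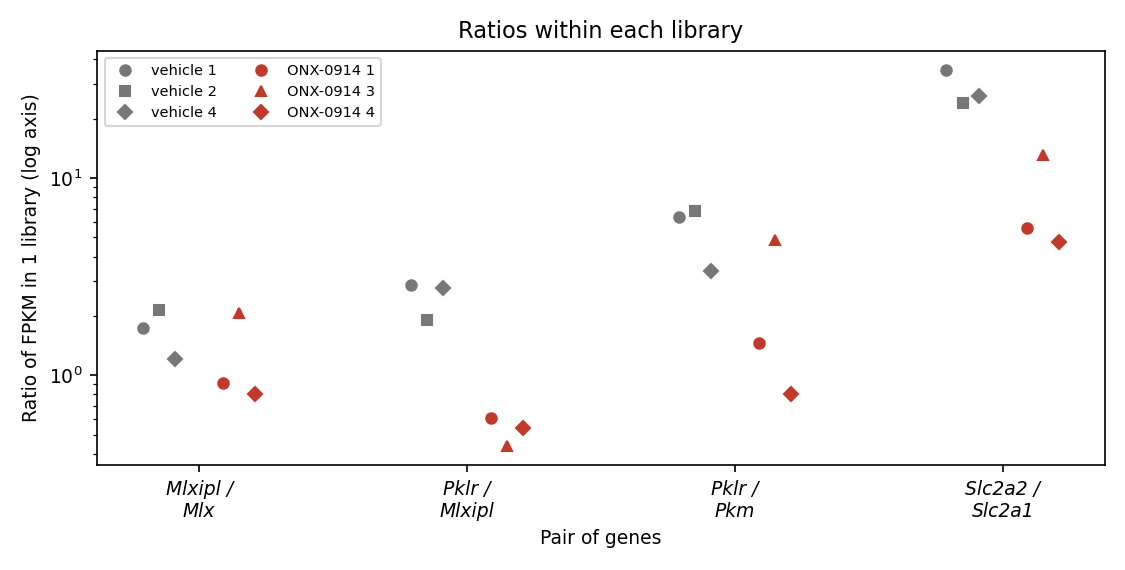
Ratio of the FPKM values of gene pairs within each library, on a log axis, with vehicle in grey and ONX-0914 in red. The ratio of Pklr to Mlxipl is at or above 1.91 in the vehicle libraries and at or below 0.61 in the treated ones, while ONX-0914 3 lies inside the vehicle range for Mlxipl to Mlx and for Pklr to Pkm.

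The other genes of these pathways come from lists that were also written with earlier results known, and some genes are on more than 1 list. Counts are of genes called in the same fit, to be read beside the 43.5% of all genes called lower. In the network of MAX and MLX partners, 6 of 11 tested genes fell, none rose and 5 were not called, with a median log2 difference of -0.81. Mycl (-1.52, limma adjusted p = 0.00181) and Mxi1 (-1.51, limma adjusted p = 0.00643), which encode MYC-family and MAX-binding factors, fell. Max, the partner gene of that network, fell by 0.87 on the log2 scale. Mlxip, the ChREBP paralog MondoA, stayed under the filter, at 0.70 to 1.26 FPKM with vehicle and 0.19 to 0.33 with ONX-0914. With median-ratio scaling 2 of the 11 fell, Mycl and Mxi1.

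Among 13 genes of ChREBP's known regulators and cofactors, 9 fell and none rose, with a median of -0.96. Rxra, the partner of many nuclear receptors, went from 41.4, 46.7 and 49.95 FPKM in vehicle 1, 2 and 4 to 2.31, 11.1 and 2.86 in ONX-0914 1, 3 and 4. Its groups lie far apart (log2 difference -3.13, SE 0.44, limma adjusted p = 0.0018). Insr, the insulin receptor (-1.80), and Foxo1, a transcription factor that insulin restrains (-1.55), fell in the same fit. Hnf4a, a hepatocyte master regulator, measured 6.26, 40.7 and 5.94 FPKM in ONX-0914 1, 3 and 4 and fell by 2.23 on the log2 scale, but it was not called with median-ratio scaling (-1.48). Nr1h3, the gene of LXR-alpha, was not called (-0.23). With median-ratio scaling 4 of the 13 fell, Rxra, Insr, Foxo1 and Thrb.

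The lipogenic genes that ChREBP shares with SREBP1 fell in 11 of 12 cases, with none higher and a median of -2.59. Scd1, the gene of the desaturase that makes oleate, had a log2 difference of -5.66 (limma adjusted p = 8.71e-05). Gpam, which starts glyceride synthesis (-3.40), Elovl6, a fatty acid elongase (-3.35), and Acaca, which makes malonyl-CoA (-2.92), each fell too, with limma adjusted p values of 0.00117, 0.00135 and 0.00184. Angptl8, the 1 gene not called, was named after its values were seen. It measured 79.2, 27.6 and 104 FPKM with vehicle and 41.1, 48.8 and 101 with ONX-0914, 2 groups that overlap. With median-ratio scaling 9 of the 12 fell and the median was -1.89.

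Other genes described as ChREBP targets were mixed, 6 of 11 lower, none higher and 5 not called, with a median of -0.82. Ppp1r3b, a subunit that brings phosphatase to glycogen (-3.66), and G6pc, the glucose-releasing phosphatase of liver (-2.76), had limma adjusted p values of 0.00158 and 0.0153. G6pc lost its call with median-ratio scaling (-1.99). Arrdc4, the arrestin gene nearest in kind to Txnip, measured 5.61, 2.19 and 4.01 FPKM with vehicle and 3.09, 2.46 and 1.59 with ONX-0914. Its groups overlap and it was not called (-0.51, SE 0.32). Fgf21 and Klf10, a hormone gene and a transcription factor gene, were not called either (-0.21 and -0.77). With median-ratio scaling 2 of the 11 fell, Ppp1r3b and Mttp.

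**Figure D4:**
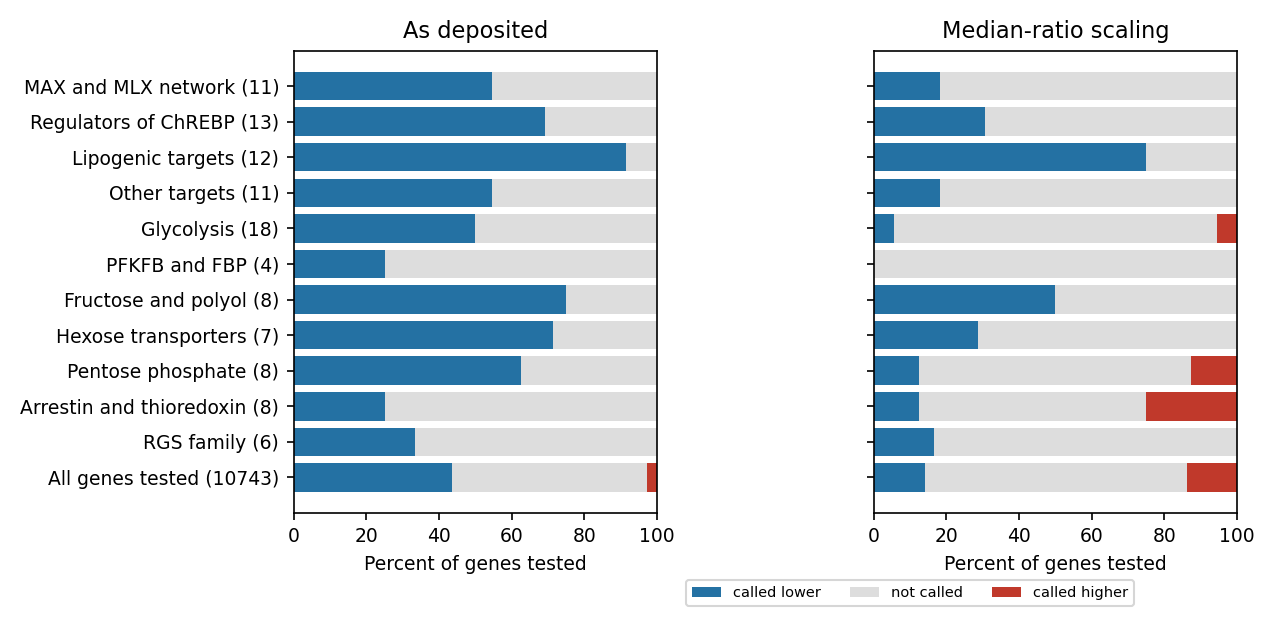
Percent of tested genes called lower (blue), not called (grey) or called higher (red) in each pathway list, with the number tested in brackets, for values as deposited (left) and with median-ratio scaling (right). The lipogenic list has 11 of 12 and then 9 of 12 called lower, while glycolysis goes from 9 of 18 to 1 of 18, beside 43.5% and 14.2% of all genes.

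Of 18 glycolysis genes tested 9 fell and none rose, with a median of -0.76 that lies near that of all genes. Pkm (-1.48) and Pgam1 (-1.32), genes of the lower part of glycolysis, fell, while Ldha (0.00) and Gpi1 (0.02), the genes of lactate dehydrogenase A and glucose phosphate isomerase, were not called. Gapdh (-2.12) is uncertain, because its ONX-0914 1 value of 83.5 FPKM lay among the vehicle libraries. Near-identical pseudogene copies can share its reads, which was not tested. With median-ratio scaling 1 gene fell (Hk1) and 1 rose (Aldoa), and the median was -0.03, so the calls depend on the scaling.

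Among the relatives of Pfkfb1, Pfkfb2 and Pfkfb3 encode isoforms of the same enzyme in other tissues and were not called (-0.79 and -0.10). Both were highest in ONX-0914 3, at 8.69 and 7.57 FPKM, against 0.64 to 1.22 in the other treated libraries and 1.83 to 5.70 with vehicle. Fbp1, the phosphatase of glucose production that works against phosphofructokinase, went from 1677, 1710 and 1924 FPKM to 423, 723 and 717. It was the 1 of 4 genes called on that list (-1.55, limma adjusted p = 0.00237), and its call was lost with median-ratio scaling (-0.75).

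Fructose and polyol genes other than Khk fell in 6 of 8 cases, with none higher and a median of -1.49. Sord, which turns sorbitol into fructose, measured 758, 776 and 681 FPKM in vehicle 1, 2 and 4, against 87.1, 316 and 201 in ONX-0914 1, 3 and 4 (log2 difference -2.05, limma adjusted p = 0.00444). All 3 treated libraries were below every vehicle library. Slc2a5, the fructose transporter GLUT5, went from 4.26, 5.70 and 3.81 to 0.09, 0.88 and 1.09 FPKM (-1.77), and Glyctk, which handles glycerate from fructose, had a difference of -1.55. Tkfc, which phosphorylates glyceraldehyde from fructose, fell by 0.95 on the log2 scale but was not called with median-ratio scaling (-0.16). Sord, Slc2a5, Glyctk and Slc2a9 were the 4 of 8 called lower with that scaling.

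Hexose transporters other than Slc2a2 fell in 5 of 7 tested genes, with a median of -0.86. Slc2a9, a urate and hexose carrier gene (-1.50), and Slc37a4, which moves glucose 6-phosphate into the endoplasmic reticulum (-0.86), were among them. Slc2a1 (-0.75, limma adjusted p = 0.0325) was low in both groups, at 3.87 to 5.04 FPKM with vehicle and 1.74 to 2.57 with ONX-0914. With median-ratio scaling 2 of the 7 fell, Slc2a5 and Slc2a9. Pentose phosphate genes fell in 5 of 8 cases (median -1.24), among them G6pdx (-1.81) and Pgd (-1.38), its NADPH-making steps. With median-ratio scaling 1 of those 8 fell (Rpia) and 1 rose (Pgls).

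In the arrestin and thioredoxin list 2 of 8 genes fell, Arrdc3 (-2.47, limma adjusted p = 0.0018) and Txnrd1 (-1.77, limma adjusted p = 0.00923), with a median of -0.50. Txn1, the gene of the thioredoxin that TXNIP binds, was at 776 to 824 FPKM with vehicle and 796 to 969 with ONX-0914 and was not called (0.16). The ratio of Txnip to Txn1 was 0.036, 0.037 and 0.032 in vehicle 1, 2 and 4 but 0.0053, 0.018 and 0.0011 in ONX-0914 1, 3 and 4. With median-ratio scaling 1 gene fell (Arrdc3) and 2 rose (Txn1 and Txnrd2). Of the other RGS genes 6 of 12 passed the filter and 2 fell, Rgs2 (-1.88, limma adjusted p = 0.00199) and Rgs1 (-0.90), with a median of -0.55, and Rgs2 alone fell with median-ratio scaling.

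Genes nearest to Mlxipl in profile were Serpina3g, Ccdc97, Mtx3, Art4 and Hyal1, by Euclidean distance (0.29 to 0.44) between log2 values less the vehicle mean over the 6 libraries. None of these 5 was called. Each was high in ONX-0914 3, at 81.3% to 113% of its vehicle mean, and low in ONX-0914 4, at 3.66% to 27.5%. Mlxipl was at 107% and 30.1% in these libraries. The likeness follows from how the 5 genes were picked and is no separate result.

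**Figure D5:**
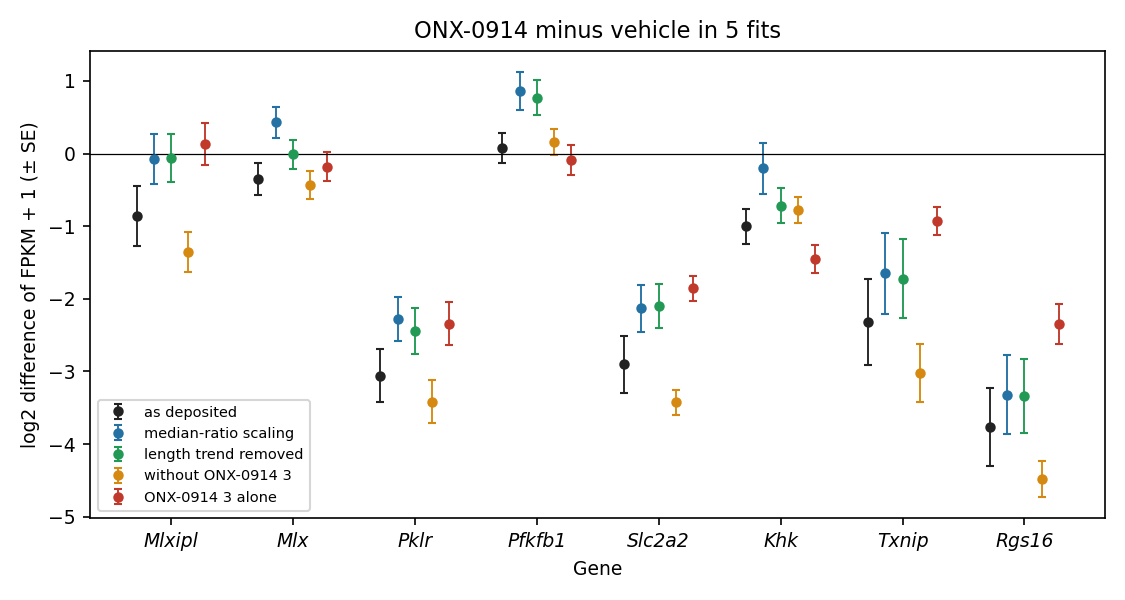
Log2 difference of FPKM + 1 (ONX-0914 minus vehicle, ± SE) of the 8 genes in 5 fits, as coloured in the key. Pklr, Slc2a2 and Rgs16 lie at or below -1.86 in each fit shown, Mlxipl ranges from -1.36 without ONX-0914 3 to 0.13 with that library alone, and Pfkfb1 moves from 0.08 to 0.86 with median-ratio scaling.

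Markers of other cells moved with the treatment as well. All 10 endothelial markers fell, with a summed level of 147 to 157 FPKM with vehicle and 24.7 to 44.5 with ONX-0914. Kupffer cell and macrophage markers fell in 7 of 10 cases (1123 to 1730 and 594 to 977 FPKM summed) and stellate markers in 6 of 10 (316 to 386 and 78.8 to 183). Of 6 cholangiocyte markers tested 2 fell (79.5 to 82.7 and 76.0 to 126), and of 6 lymphocyte and neutrophil markers none was called (296 to 1766 and 183 to 4334). Of all genes tested, 43.5% fell and 2.56% rose. With median-ratio scaling, where 14.2% of all genes fell and 13.8% rose, 8 endothelial, 3 Kupffer cell and macrophage, 5 stellate and 0 cholangiocyte markers fell, and 1 cholangiocyte and 1 lymphocyte or neutrophil marker rose. With the length trend removed the numbers lower were 7, 4, 4 and 0 in the same order, and none rose. Hepatocyte markers, of which 3 fell and 2 rose among 9 tested, summed to 106088 to 108674 FPKM with vehicle and 99999 to 143731 with ONX-0914, so hepatocyte transcripts were abundant in each library. No hepatocyte marker was called lower after median-ratio scaling, when 4 were called higher, or after removal of the length trend, when 3 were. The calls in this list thus depend on the scaling. Its median log2 difference was 0.20 as deposited, 1.005 with median-ratio scaling and 0.26 without the length trend, but -0.016 in ONX-0914 3 alone. After quantile normalization Cps1 (-1.51) and Ass1 (-0.80) were called lower and Fgb (0.99) higher. None of the markers in these lists was at 0 in all treated libraries. The part of these markers, of gene length and of ONX-0914 3 in the differences above was not tested beyond the values given. In whole tissue, fewer cells of a type and less RNA per cell cannot be told apart.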

How the data were processed

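The authors deposited a matrix of FPKM values for 22851 genes in 6 liver libraries, rounded to 2 decimals. The unit was read from the values, since the file header names only genes and libraries. The submitters' processing notes list edgeR, featureCounts (1.6.0), HISAT2 (2.0.1), cutadapt (1.11) and FastQC (0.11.5), and the builds mm10 and GRCm38. Their order, the annotation and exact scaling are not given in the sources used here.

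Genes above 1 FPKM in at least 3 libraries (10743) were fitted on log2(FPKM + 1) in R 4.3.3 using limma 3.58.1 (trended variance, group as the only term). The Benjamini-Hochberg adjustment ran over all of them, and calls needed an adjusted p under 0.05. This scale understates changes of low genes. The same code was also run on simulated data with means and spreads taken from these libraries, as a check of the code only. Gene lengths were summed GENCODE M21 exons, available for 98.2% of genes in the fit, and the length trend was a lowess curve (span 0.3) per library. The worth of 1 read was the mode of value times length over short genes of 1 transcript. Of values near 1 read, 34.0% to 70.4% per library lay within 0.15 of that mode, so the depth is approximate.

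Genes named are the 8 members, up to 4 called genes per list with the largest differences, direct partners and paralogs, and the 5 genes nearest to Mlxipl. The members and lists were chosen with earlier results of these data known. A few uncalled or contrasting genes (Angptl8, Fgf21, Klf10, Nr1h3, Ldha, Gpi1), and those named as called under median-ratio scaling (Thrb, Hk1, Aldoa, Pgls, Txnrd2), were named after their values were seen. Count models were not used, as the file holds no counts. A few genes of the lists are not reported here by name.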

Additional observations from a re-analysis of the deposited data

How the results depend on the processing

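Pklr, Slc2a2 and Rgs16 were called lower in each of the 14 alternative fits, Khk and Txnip in 12, Mlxipl in 2 and Mlx in none. Members called lower numbered 5, and 3 with median-ratio scaling and with the length trend removed, where 1 was called higher. Sign changed for Mlxipl (0.13) and Pfkfb1 (-0.085) in ONX-0914 3 alone, for Mlx with median-ratio scaling (0.43) and quantile normalization (0.14), and for Pfkfb1 without vehicle 1 (-0.024), the other fits without 1 library giving up to 0.16. No one of these values was called. The causes were not tested. Over all genes 275 were higher and 4673 lower. These were 1481 and 1528 with median-ratio scaling, 1122 and 1349 without the length trend, and 1118 and 1334 after quantile normalization. Each of these adjustments changes the balance by construction. ONX-0914 3 alone gave 2992 lower, with that library assumed to vary like the vehicle libraries. Leaving out single libraries gave 92 to 740 higher and 2590 to 6514 lower. Without vehicle 1, 2 and 4 the counts were 92, 124 and 111 higher and 2590, 2840 and 2966 lower. Without ONX-0914 1, 3 and 4 they were 141, 740 and 134 higher and 3197, 6514 and 3025 lower. Members called lower numbered 5 to 6 over those fits, the sixth being Mlxipl without ONX-0914 3.

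The replicate block used the numbers 1 and 4 that occur in both groups. It gave 604 genes higher and 5973 lower, and Mlxipl was called lower (-1.25). Because that fit spends a term on each replicate number, little is left to measure the spread between libraries. Its counts are therefore not comparable with those of the main fit. Vehicle 2 and ONX-0914 3 have no same-numbered partner, so neither informs the treatment difference in that fit. The 2 fits that called Mlxipl lower thus both estimate its difference without ONX-0914 3. Same-numbered libraries correlated at 0.001 and 0.133 in their deviations from the group means. With 3 libraries per group these values cannot tell whether such libraries share more than a number, and the labels do not say. The depth is approximate, and Rgs16 in ONX-0914 1 and 4 rests on few or no reads.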
